A study of Homo sapiens with 8 samples.

Results

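Heterogeneous nuclear ribonucleoproteins (hnRNPs) and SR proteins were followed at the level of their messenger RNA in MOLM13 cells, a human line established from acute myeloid leukemia. The genes were chosen by symbol: those beginning with HNRNP and those written SRSF followed by a number, without pseudogene and antisense symbols and without rows at 0 in every library. This gave 35 genes among the 35370 rows of the deposited table, 23 with an HNRNP symbol and 12 with an SRSF symbol. HNRNPCL2, HNRNPCL3 and HNRNPCL4 also match the pattern but are listed at 0 in all libraries. Of the 35 genes, 34 passed the filter on low values and were tested. The exception was HNRNPCL1, listed at -2.09 on the log2 scale in every library.

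The 8 libraries of polyadenylated RNA form 4 groups of 2. Rescue cells are labelled as given IGF2BP2, mutant rescue cells as given a mutated form (spelled IGF2PB2-mut), knockdown cells as depleted of IGF2BP2, and control cells as wild type. The knockdown titles carry the prefix sh, as used for short hairpin RNA, and the protocol for all groups describes viral infection with puromycin added where selection was needed. The labels do not state the mutation, whether the rescue cells were made from the knockdown cells, whether control and knockdown cells carried an empty construct, or whether the cells were a clone. Nor is it stated that replicates came from separate cultures, so p-values reflect only the spread among the libraries, possibly a technical one. In bulk RNA, fewer cells of a kind and less RNA per cell cannot be told apart.

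The 2 families act on the same step of gene expression. SR proteins bind exons through RNA recognition motifs and, through a tail rich in arginine and serine that is phosphorylated by SRPK and CLK kinases, help the spliceosome to recognise splice sites. hnRNPs coat nascent transcripts, often silence exons, and take part in export, stability and translation. Many members limit their own amount by splicing a poison exon, with an early stop codon, into their own messenger RNA, which is then degraded. In myeloid cells the families are known for recurrent mutations of SRSF2. IGF2BP2, the gene altered here, encodes a reader of N6-methyladenosine (m6A) in messenger RNA, and HNRNPA2B1, HNRNPC, SRSF3 and SRSF10 have also been linked to m6A.

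IGF2BP2 itself stood at 11.36 and 11.13 in rescue, 11.03 and 10.68 in mutant rescue, 10.24 and 10.25 in knockdown, and 10.94 and 10.89 in control (log2 values). Knockdown lay below control by 0.67 (SE 0.13, limma adjusted p = 0.0147), and this call was lost without any 1 of the 4 libraries compared (adjusted p = 0.0662 to 0.123). All 12 myeloid leukemia markers, among them PTPRC, CD33, FLT3 and MEIS1, passed the filter in these cells. Of 12 markers of other cell types 8 did not pass, with the T cell gene CD3E and the B cell gene MS4A1 at 0, while PECAM1, KRT8, KRT18 and PAX5 did. PECAM1 stood at 12.79 and 12.88 in knockdown, against 10.96 and 10.94 in control. The myeloid gene LYZ stood at 17.13 and 17.07 in knockdown, against 14.99 and 15.36 in control. Among the 12 myeloid markers, limma called 5 higher in knockdown than in control, LYZ included, and 1 lower. The lower one was HOXA9 (-0.70, limma adjusted p = 0.00389). Among the 4 tested markers of other cell types, PECAM1 alone was higher and KRT18 alone lower (-0.65, limma adjusted p = 0.0159). The part of these genes in the results was not tested. Depth is unknown, since the deposited values are normalized log2 values. Replicates differed most in mutant rescue, among the members as over all genes. Over the 34 members, replicate differences in log2 value had an SD of 0.276 in rescue, 0.383 in mutant rescue, 0.134 in knockdown and 0.196 in control. Over all genes tested the SD was 0.232 in rescue, 0.303 in mutant rescue, 0.148 in knockdown and 0.212 in control. The replicates differed by more than 0.5 in 4 members in rescue, 6 in mutant rescue, 0 in knockdown and 1 in control. In mutant rescue those 6 were HNRNPAB, HNRNPD, HNRNPH1, HNRNPL, HNRNPUL2 and SRSF9, each higher in replicate 2.

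Knockdown cells had lower levels of 12 of the 34 genes than control cells, and no member was called higher. Those 12 were 7 of 22 hnRNP genes (HNRNPA3, HNRNPM, HNRNPDL, HNRNPA1, HNRNPH3, HNRNPR and HNRNPF) and 5 of 12 SR genes (SRSF7, SRSF2, SRSF1, SRSF10 and SRSF11). Over all genes tested 7.44% were called lower and 5.35% higher, so that 58.2% of calls were lower, against 43.8% with a pseudocount of 1 ppm. The median log2 change was -0.27 over the 34 members and 0.01 over all 13030 genes, and 28 members had a negative change, or 82.4% against 48.2% of all genes. The changes of the members ran between -0.72 and 0.16. At an unadjusted p under 0.05, 15 of the 34 members were lower and 0 higher, against 2082 lower and 1699 higher of all 13030 genes.

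**Figure D1:**
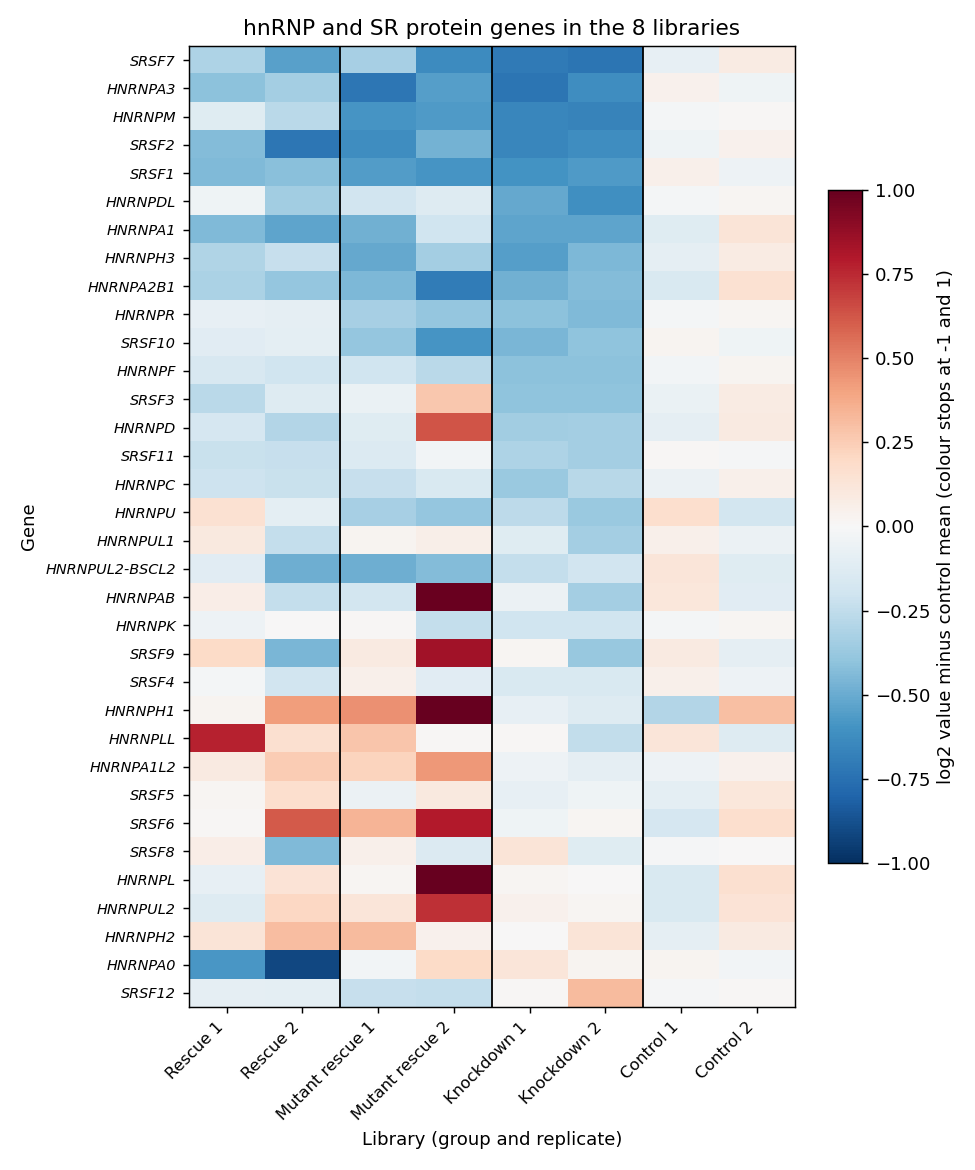
Log2 value of each of the 34 tested genes (rows, ordered by the change in knockdown) in each of the 8 libraries (columns), as the difference from the mean of the 2 control libraries. SRSF7, HNRNPA3, HNRNPM, SRSF2 and SRSF1 at the top are blue in all rescue, mutant rescue and knockdown libraries. The dark red cells of HNRNPAB, HNRNPH1 and HNRNPL belong to mutant rescue replicate 2, where HNRNPAB was 9.35 against a control mean of 8.36. The colour stops at 1, which HNRNPH1 and HNRNPL pass in that library.

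Among the SR genes, SRSF7 showed the largest fall. It encodes an SR protein with a zinc knuckle that also serves as an adapter for export of messenger RNA. Its log2 values were 12.41 and 12.39 in knockdown, against 13.04 and 13.20 in control, a change of -0.72 (SE 0.13, adjusted p = 0.0108) or 1.65-fold lower. SRSF2, also called SC35, had 11.34 and 11.37 in knockdown, against 11.95 and 12.03 in control (-0.63, SE 0.12, adjusted p = 0.0116). SRSF1, the founding SR protein and a known oncoprotein, had 12.17 and 12.20 in knockdown, against 12.82 and 12.72 in control (-0.58, SE 0.09, adjusted p = 0.0052). For each of these genes both knockdown libraries lay below both control libraries. Here and below, the share of all genes with such a gap is not given, so the gap adds nothing to the tests. SRSF10, which represses splicing when it loses its phosphates, fell by 0.42 (SE 0.10) and SRSF11 by 0.33 (SE 0.09). The SRSF10 call was lost with quantile normalization and with a pseudocount (adjusted p = 0.076 and 0.0597). The SRSF11 call was lost in 6 of the 8 fits that left out 1 library, with no filter, equal library medians, a pseudocount and the replicate block (adjusted p = 0.0517 to 0.0655), and with quantile normalization (-0.16, adjusted p = 0.247).

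Among the hnRNP genes, HNRNPA3 and HNRNPM changed most. HNRNPA3 encodes a relative of hnRNP A1 and A2. Its values were 11.44 and 11.55 in knockdown, against 12.21 and 12.13 in control, a change of -0.67 (SE 0.10, adjusted p = 0.00484) or 1.60-fold lower. HNRNPM, a regulator of exon inclusion that binds GU-rich RNA, had 12.25 and 12.23 in knockdown, against 12.88 and 12.91 in control (-0.65, SE 0.09, adjusted p = 0.00418). Again no knockdown library reached a control library. HNRNPDL, a relative of HNRNPD, fell by 0.56 (SE 0.11), HNRNPA1, the classical splicing silencer, by 0.53 (SE 0.13), HNRNPH3 by 0.50 (SE 0.10), HNRNPR by 0.43 (SE 0.08) and HNRNPF, which binds G-tracts, by 0.41 (SE 0.09). The HNRNPF call was lost with quantile normalization (-0.29, limma adjusted p = 0.0533) and the HNRNPA1 call with no filter (adjusted p = 0.0539). HNRNPA1 shares sequence with many processed pseudogenes and with HNRNPA1L2, so its level is uncertain where reads were split between copies. The table lists 75 HNRNPA1 pseudogene rows, of which 39 are not at 0 in every library, and HNRNPA1P48 and HNRNPA1P54 passed the filter.

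**Figure D2:**
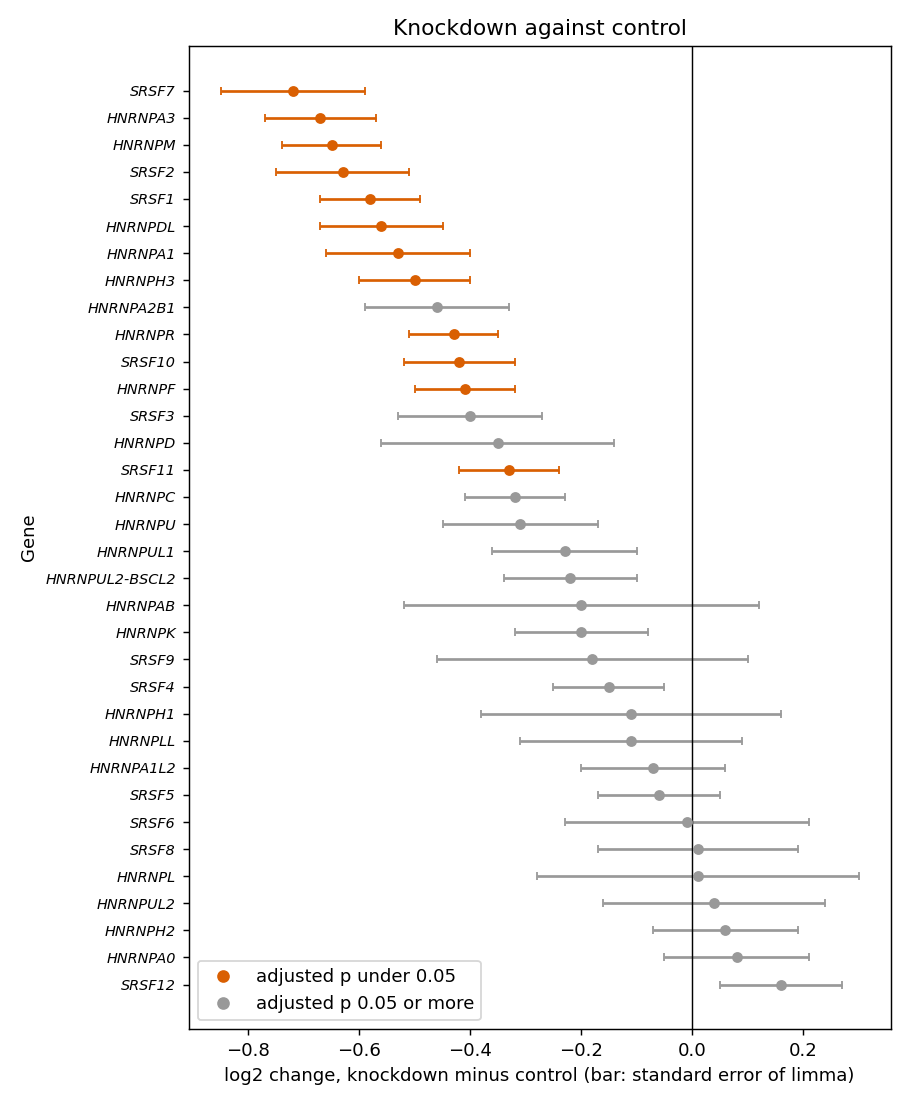
Log2 change in knockdown minus control for the 34 tested genes (points), with the standard error from limma (bars); orange marks an adjusted p under 0.05. The 12 orange points all lie left of 0, between -0.72 for SRSF7 and -0.33 for SRSF11.

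Several of the best known members did not pass the test in knockdown. HNRNPA2B1, whose protein has been linked to m6A in microRNA precursors, had 13.77 and 13.82 in knockdown, against 14.10 and 14.40 in control (-0.46, SE 0.13, adjusted p = 0.055). HNRNPC, which binds uridine tracts that m6A exposes, had 13.32 and 13.41 in knockdown, against 13.63 and 13.74 in control (-0.32, SE 0.09, adjusted p = 0.0587). SRSF3, a small SR protein that is recruited by the m6A reader YTHDC1, stood at 12.53 in both knockdown libraries, against 12.86 and 13.01 in control (-0.40, SE 0.13, adjusted p = 0.0716). The libraries of the 2 groups did not overlap for any of these genes. That is a weak criterion with 2 libraries a group, since HNRNPA0, with a change of 0.08 (adjusted p = 0.729), did not overlap either. HNRNPU, a scaffold of nuclear RNA and chromatin, differed by -0.31 (SE 0.14, adjusted p = 0.173) and HNRNPK, which binds C-rich sequence, by -0.20 (SE 0.12, adjusted p = 0.305). HNRNPU has an antisense partner in the table, and the counting is not stated to use strand. The changes of HNRNPL, HNRNPH2, HNRNPUL2, HNRNPA0, SRSF5, SRSF6, SRSF8 and HNRNPA1L2 lay between -0.07 and 0.08. The authors' deposited table lists 17 members as lower in knockdown at an adjusted p under 0.05, the 12 genes above with HNRNPA2B1, HNRNPC, HNRNPD, HNRNPU and SRSF3, where 13.4% of the genes tested here were listed as lower.

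The count of lower members depended on single libraries. It was 0 without knockdown replicate 1 and 0 without knockdown replicate 2. It was 10 without control replicate 1, 3 without control replicate 2 (HNRNPM, HNRNPA3 and SRSF1) and 16 without either library of mutant rescue, fits in which 10.3% of all genes were lower. With all libraries it was 9 with quantile normalization, 10 with no filter or a pseudocount and 11 with equal library medians. Without knockdown replicate 1 the smallest adjusted p among the members was 0.0672 and without knockdown replicate 2 it was 0.0547. Over all genes 71 and 78 were called lower in those fits, against 970 in the full one. When 1 library was left out, the log2 change lay between -0.66 and -0.64 for HNRNPM and between -0.80 and -0.65 for SRSF7. It varied more for HNRNPA1, between -0.66 and -0.41. Among members not called it lay between -0.61 and -0.31 for HNRNPA2B1 and between -0.49 and -0.13 for HNRNPU.

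Promoters of the members were read for short motifs, since 12 of the members were lower in knockdown. RefSeq promoters (GRCh38.p14) were at hand for 32 of the 34 tested genes, and the first one listed for each gene was read. For 27 of the 32, bases 26 to 50 after the start were found in a GENCODE v29 transcript on the same strand. In the 250 bases before the start, searched on both strands, the E-box CACGTG, the site of MYC and related factors, was found in 6 of 32 members, against 6.49% of all 27305 promoters and 9.07% of those of tested genes. Of those 6 genes, HNRNPA3, HNRNPDL, HNRNPH3 and HNRNPM were lower in knockdown, while HNRNPD and HNRNPH2 were not called. The 30 bases around the match are shown for each, 5′ to 3′ on the strand of the gene, with the E-box in capitals. In HNRNPA3, HNRNPD, HNRNPDL, HNRNPH3 and HNRNPM they lie within the gene's outer bounds in GENCODE v29.
HNRNPA3 (chr2:177212711-177212740, plus strand): cggaaaacgcgtCACGTGacgactggcccc
HNRNPD (chr4:82374001-82374030, minus strand): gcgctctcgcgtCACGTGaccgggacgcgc
HNRNPDL (chr4:82430364-82430393, minus strand): agaggcccggggCACGTGcagaaaggagcc
HNRNPH2 (chrX:101408168-101408197, plus strand): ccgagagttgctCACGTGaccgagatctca
HNRNPH3 (chr10:68331631-68331660, plus strand): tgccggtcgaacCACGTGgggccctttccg
HNRNPM (chr19:8444921-8444950, plus strand): gttgcgtcgggtCACGTGggcgcgcaggcg

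The first base of the E-box lay 71 bases before the start in HNRNPA3, 27 in HNRNPD, 156 in HNRNPDL, 50 in HNRNPH3 and 42 in HNRNPM. HNRNPH2 held 2 matches, of which the one 42 bases before the start is shown. SRSF7, with the largest fall, has no CACGTG in these 250 bases. It is shown with HNRNPA0, the member that was lower in rescue cells, SRSF7 over all 250 bases and HNRNPA0 over bases 250 to 51 before the start. Capitals mark GGGCGG (the GC box) and CCAAT on either strand.
SRSF7 (chr2:38751495-38751744, minus strand): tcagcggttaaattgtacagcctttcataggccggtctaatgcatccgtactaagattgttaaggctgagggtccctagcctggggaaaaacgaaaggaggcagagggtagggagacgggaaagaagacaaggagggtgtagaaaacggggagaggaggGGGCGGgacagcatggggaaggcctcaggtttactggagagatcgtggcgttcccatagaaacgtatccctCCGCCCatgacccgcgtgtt
HNRNPA0 (chr5:137754414-137754613, minus strand): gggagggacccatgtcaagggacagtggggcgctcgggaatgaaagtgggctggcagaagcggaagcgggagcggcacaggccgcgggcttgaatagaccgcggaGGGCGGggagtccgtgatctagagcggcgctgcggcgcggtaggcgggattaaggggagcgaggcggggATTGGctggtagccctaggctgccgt

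SRSF7 held the GC box at 2 places and no CCAAT, and HNRNPA0 held 1 of each in the shorter stretch shown. CCAAT was in 16 of the 32 promoters, against 33.0% of all promoters and 35.5% of those of tested genes. GGGCGG was in 21 of 32, against 42.3% of all promoters and 65.9% of those of tested genes, so its share was close to that of tested genes. The ETS motif CCGGAAG and TATAAA were in 5 members each. CCGGAAG was in 8.82% of all promoters and 16.3% of those of tested genes, and TATAAA in 11.1% and 5.46%. The palindromic NRF1 motif was in 0 members, against 1.13% of all promoters and 2.05% of those of tested genes. A match describes the letters only.

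The gene models of the members were read for transcripts of the kind that autoregulation gives. In GENCODE v29 (GRCh38), 26 of the 34 tested members, or 76.5%, have at least 1 transcript annotated for nonsense-mediated decay, against 43.8% of the 11711 protein-coding genes tested. Such a transcript is annotated for 9 of the 12 members lower in knockdown and 17 of the other 22. The members also have more annotated transcripts, with a median of 10.5 against 8.0 for the protein-coding genes tested. More transcripts leave more room for at least 1 of this kind. The members counted include HNRNPUL2-BSCL2, a readthrough whose only transcript is annotated for decay. Transcripts with a retained intron are annotated for 67.6% of members and 58.6% of protein-coding genes. The deposited values are per gene, so coding transcripts and those with a poison exon cannot be told apart. SRSF7 (chromosome 2, 38743599 to 38751494, minus strand) has 6 such decay transcripts among 12, SRSF1 (chromosome 17, 58003360 to 58007346, minus strand) 3 among 9, and HNRNPDL (chromosome 4, 82422564 to 82430408, minus strand) 4 among 10. HNRNPA3 (chromosome 2, 177212563 to 177223958, plus strand) has none among 5, and HNRNPM (chromosome 19, 8444767 to 8489114, plus strand) 1 among 17.

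Other genes of the splicing machinery were taken from lists set out by role. Their counts stand against 7.44% of all genes lower and 5.35% higher in knockdown. Of 50 core spliceosome genes 10 were lower and 0 higher in knockdown, with a median log2 change of -0.24. They included SNRPB (-0.68, SE 0.12), SNRPD1 (-0.49) and SNRPG (-0.62), which encode proteins of the Sm ring around spliceosomal small nuclear RNAs, and SNRPA1 (-0.55, SE 0.10) of the U2 particle. Of 36 tested RNA-binding proteins counted among hnRNPs or similar regulators 5 were lower and 0 higher (median -0.09), among them TARDBP (-0.81, SE 0.11), PSPC1 (-0.68, SE 0.09) and NONO (-0.32). Of 27 SR kinases, import factors and partners 3 were lower and 0 higher. They were TRA2B (-0.69, SE 0.11), a partner of SR proteins, and, close to the threshold, PNN (-0.41, limma adjusted p = 0.0443) and RNPS1 (-0.38, adjusted p = 0.0467). None of the SRPK or CLK kinase genes on that list was called in knockdown.

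Cell cycle markers moved in the same comparison. Of 12 such genes 9 were lower in knockdown and 0 higher, with a median log2 change of -0.58. The log2 of their summed level lay between 14.65 and 14.66 in knockdown and between 15.20 and 15.21 in control. Their part in the result was not tested. Of 10 interferon markers 4 were higher in knockdown (median 0.41).

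**Figure D3:**
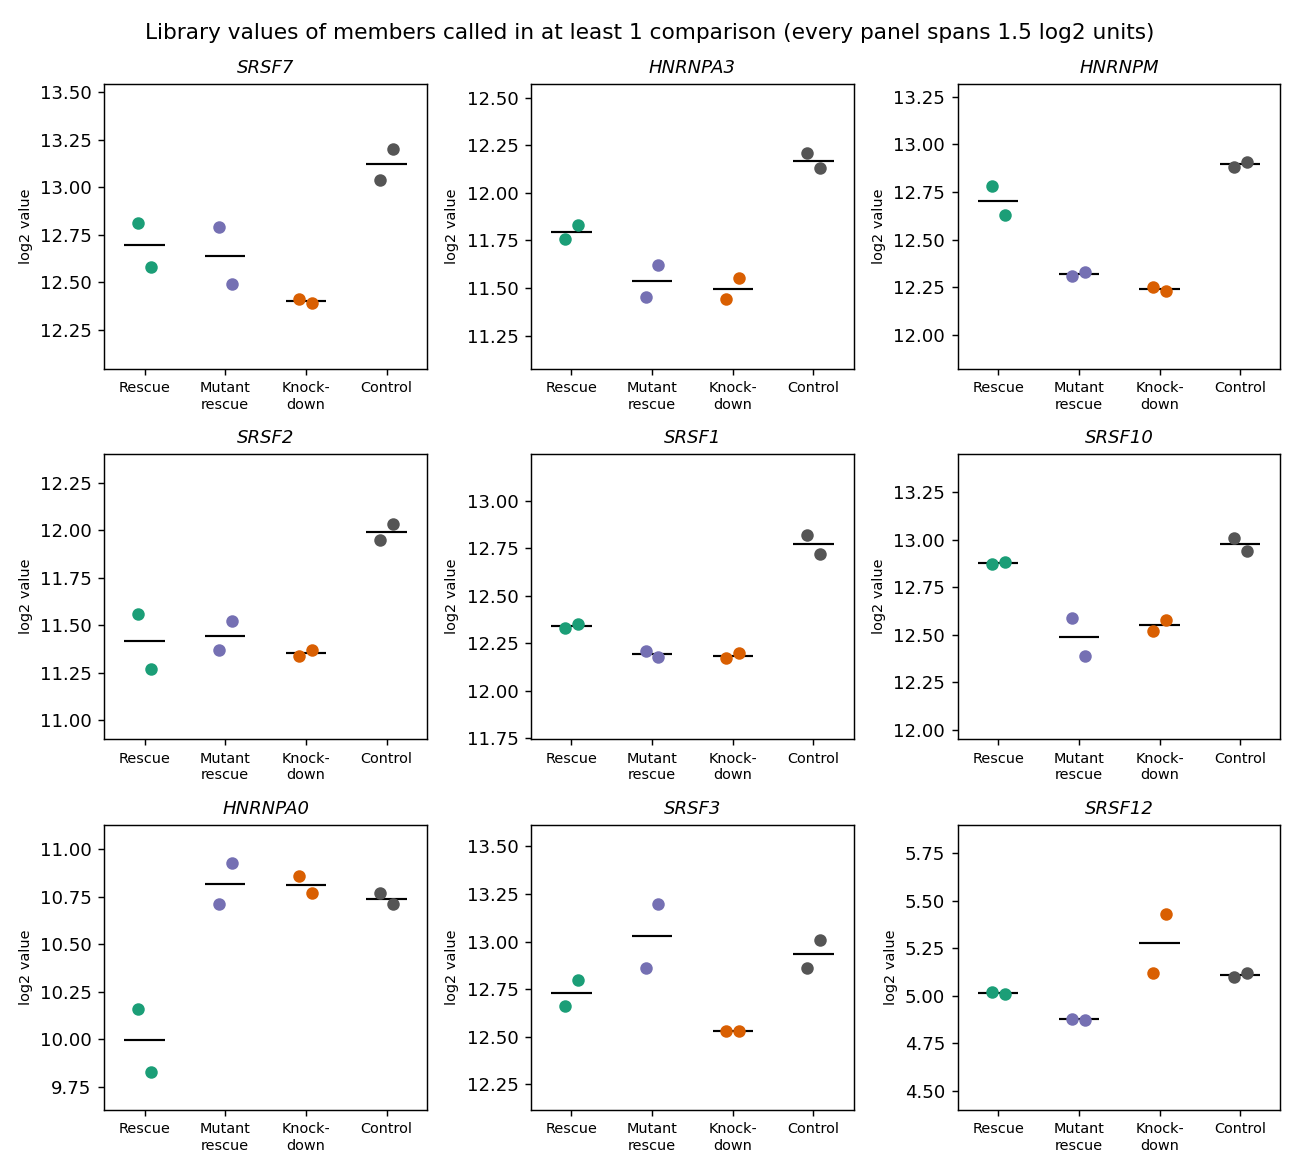
Log2 value in each library (points) and group mean (horizontal line) for 9 genes called in at least 1 comparison, with groups from left to right rescue, mutant rescue, knockdown and control; every panel spans the same number of log2 units. HNRNPM and SRSF10 stand higher in both rescue libraries than in both mutant rescue and both knockdown libraries, and HNRNPA0 is lowest in the rescue libraries, at 10.16 and 9.83.

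Rescue against knockdown asked which members changed when IGF2BP2 was given. HNRNPM alone was called higher and HNRNPA0 alone lower, against a background of 3.22% of genes higher and 1.02% lower. Of all calls 24.1% were lower, against 39.0% with quantile normalization and 59.8% with a pseudocount. The median log2 change was 0.16 over the members and 0.00 over all genes. HNRNPM had 12.78 and 12.63 in rescue, against 12.25 and 12.23 in knockdown, a change of 0.46 (SE 0.09, adjusted p = 0.0269) or 1.38-fold higher. HNRNPA0, an hnRNP that binds AU-rich elements in messenger RNAs of inflammatory genes, had 10.16 and 9.83 in rescue, against 10.86 and 10.77 in knockdown, a change of -0.82 (SE 0.13, adjusted p = 0.00889) or 1.77-fold lower. Neither gene overlapped between the groups, but the share of all genes without overlap is not given here. The HNRNPM call was lost without any 1 of the 4 rescue and knockdown libraries (adjusted p = 0.0703 to 0.279), and also with quantile normalization and with a pseudocount (adjusted p = 0.115 and 0.0542). The HNRNPA0 call was lost when rescue replicate 2 (adjusted p = 0.0625) or either knockdown library (adjusted p = 0.115 and 0.0757) was left out.

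The other members lower in knockdown gave a range of values in rescue, and both comparisons share the knockdown libraries. SRSF10 had 12.87 and 12.88 in rescue, against 12.52 and 12.58 in knockdown (0.32, SE 0.10, adjusted p = 0.112). HNRNPR had 11.26 and 11.25 in rescue, against 10.93 and 10.90 in knockdown (0.34, adjusted p = 0.0619). SRSF7 had 12.81 and 12.58 in rescue (0.30, adjusted p = 0.248) and HNRNPA3 11.76 and 11.83 (0.29, adjusted p = 0.142), both above their knockdown libraries. SRSF1 had 12.33 and 12.35 in rescue (0.15, adjusted p = 0.371), while SRSF2, at 11.56 and 11.27 (0.06, adjusted p = 0.821), and HNRNPA1, at 13.10 and 13.01 (0.05, adjusted p = 0.884), overlapped or touched knockdown. Of the other members, HNRNPK (0.17), HNRNPU (0.34), HNRNPA2B1 (0.10), HNRNPC (0.11) and SRSF3 (0.20) did not pass the test. In the authors' deposited table HNRNPA3, HNRNPLL, HNRNPM, HNRNPR, HNRNPU and SRSF10 were higher in rescue than in knockdown, where 7.04% of genes were, and HNRNPA0 was lower, where 3.08% were.

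The authors' deposited table also sets rescue against control. There 4 members were lower in rescue at an adjusted p under 0.05, where 2.77% of genes were: HNRNPA0 (log2 change -0.91, adjusted p = 0.000269), SRSF2 (-0.68, adjusted p = 0.00567), HNRNPA1 (-0.59, adjusted p = 0.0121) and SRSF1 (-0.51, adjusted p = 0.0212). In the same deposited table HNRNPM (-0.22, adjusted p = 0.543) and SRSF10 (-0.12, adjusted p = 0.816) were not called between rescue and control. Interferon markers moved strongly with the rescue construct: all 10 were higher in rescue than in knockdown, with a median log2 change of 4.89, and their part in the member changes was not tested. Of 12 cell cycle markers 5 were higher in rescue than in knockdown. Among the further splicing regulators only TARDBP passed the test there (0.49, adjusted p = 0.0446).

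Mutant rescue against knockdown asked the same of the mutated protein. SRSF3 alone was called higher and SRSF12 alone lower, against a background of 5.58% of genes higher and 5.73% lower. Of all calls 50.6% were lower, against 63.5% with quantile normalization, 71.3% with equal library medians and 92.5% with a pseudocount, which moved the median of all genes by -0.19. The median log2 change was 0.13 over the members and 0.05 over all genes, but the members' median was -0.07 with quantile normalization and -0.09 with a pseudocount. SRSF3 had 12.86 and 13.20 in mutant rescue, against 12.53 in both knockdown libraries, a change of 0.50 (SE 0.13, adjusted p = 0.0425). SRSF12, a member of low level, had 4.88 and 4.87 in mutant rescue, against 5.12 and 5.43 in knockdown (-0.40, SE 0.11, adjusted p = 0.0479). The authors' deposited table lists SRSF12 at an adjusted p of 0.138, and the SRSF12 call was lost in each of the 8 fits that left out 1 library (adjusted p = 0.0629 to 0.285). The SRSF3 call held only without mutant rescue replicate 1 among those 8 fits. All 10 interferon markers were higher in mutant rescue than in knockdown (median 3.32), and their part was not tested. The kinase gene CLK4 (0.38) and DAZAP1 (0.66), an RNA-binding protein gene, were also higher there.

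None of the 12 genes lower in knockdown was called between mutant rescue and knockdown. Since 5.58% of all genes were called higher there, this count alone says little about 12 genes. HNRNPM had 12.31 and 12.33 in mutant rescue, against 12.25 and 12.23 in knockdown (0.08, adjusted p = 0.574). SRSF1 had 12.21 and 12.18, against 12.17 and 12.20 in knockdown (0.01, SE 0.09, adjusted p = 0.958). SRSF10 had 12.59 and 12.39, against 12.52 and 12.58 in knockdown (-0.06, adjusted p = 0.701). Those 3 genes lay within or close to their knockdown libraries. HNRNPDL lay higher, at 11.27 and 11.33 in mutant rescue, against 10.95 and 10.85 in knockdown (0.40, SE 0.11, adjusted p = 0.0559). It was called higher when either rescue library was left out. SRSF11 had 12.03 and 12.14 in mutant rescue, against 11.86 and 11.83 in knockdown (0.24, adjusted p = 0.0937). SRSF7 (0.24, adjusted p = 0.22), HNRNPA1 (0.19, adjusted p = 0.307), HNRNPA2B1 (-0.12, adjusted p = 0.565), HNRNPC (0.13, adjusted p = 0.344), HNRNPK (0.08, adjusted p = 0.66) and HNRNPU (-0.05, adjusted p = 0.829) did not pass the test. The authors' deposited table lists 7 members as lower in mutant rescue than in control, where 5.7% of genes were, and HNRNPH1 (1.05) and SRSF6 (0.70) as higher, where 11.1% were. The lower ones in that deposited table were HNRNPA2B1, HNRNPA3, HNRNPM, HNRNPUL2-BSCL2, SRSF1, SRSF10 and SRSF2. HNRNPUL2-BSCL2 is a readthrough transcript that overlaps HNRNPUL2, so its level is uncertain.

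Mutant rescue replicate 2 carried the high values of several further genes. HNRNPH1, which binds G-tracts and is a close relative of HNRNPF, had 14.08 and 14.87 in mutant rescue, against 13.54 and 13.49 in knockdown (0.96, SE 0.27, adjusted p = 0.0539). HNRNPL, which binds CA repeats, had 9.81 and 10.88 in mutant rescue, against 9.81 and 9.79 in knockdown. HNRNPAB had 8.18 and 9.35, against 8.30 and 8.02 in knockdown. With mutant rescue replicate 1 left out, 9 members were called higher than in knockdown, HNRNPA1L2, HNRNPAB, HNRNPD, HNRNPH1, HNRNPL, HNRNPUL2, SRSF3, SRSF6 and SRSF9. Over all genes 14.2% were called higher in that fit. With replicate 2 left out no member was called in either direction, and 1.44% of all genes were higher. The authors' deposited table, made from both libraries, listed HNRNPD, HNRNPH1, SRSF3 and SRSF6 as higher in mutant rescue than in knockdown, where 4.37% of genes were.

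**Figure D4:**
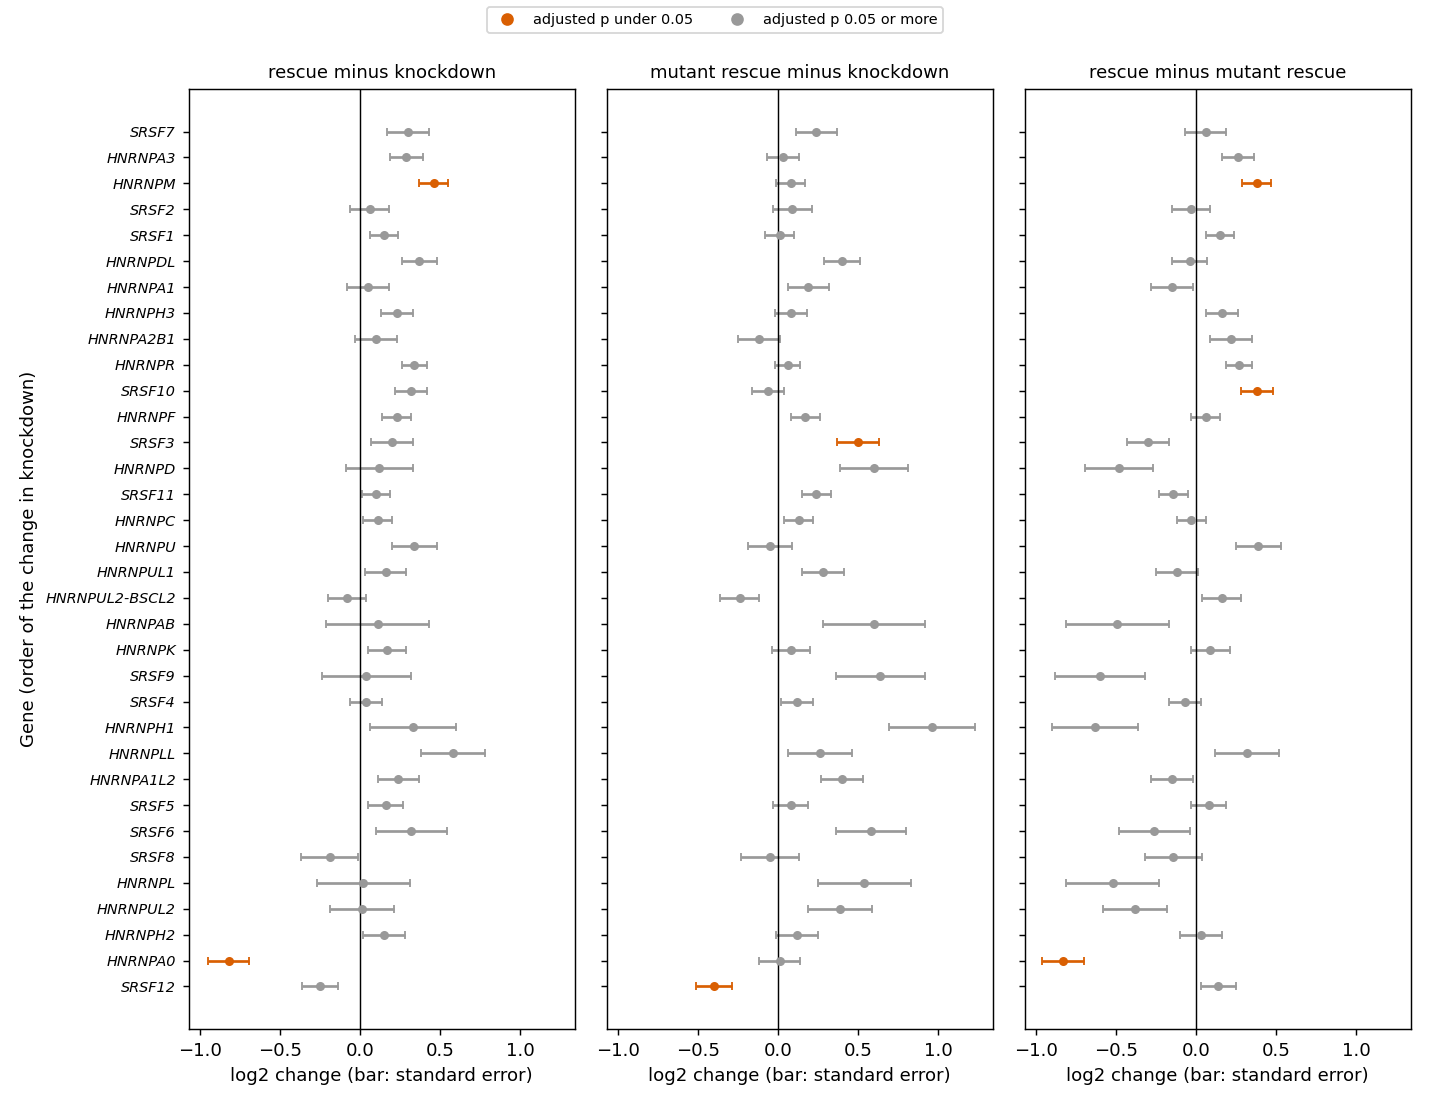
Log2 change of the 34 tested genes (rows, in the order of the change in knockdown) in rescue over knockdown (left), mutant rescue over knockdown (middle) and rescue over mutant rescue (right), with the standard error from limma (bars); orange marks an adjusted p under 0.05. HNRNPA0 stands apart at -0.82 and -0.83 in the left and right panels and at 0.01 in the middle one, and the widest bars, such as that of HNRNPAB, belong to genes whose mutant rescue libraries differ.

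Rescue against mutant rescue set the intact protein beside the mutated one, with no library shared with the comparison of knockdown and control. Both comparisons use the spread estimated from all 8 libraries, however, so calls made in both are not independent. IGF2BP2 itself was 0.39 higher in rescue, which was not called (SE 0.13, limma adjusted p = 0.0839). The mutation and the level of IGF2BP2 cannot be told apart here. HNRNPM and SRSF10 were higher in rescue and HNRNPA0 was lower, against a background of 5.9% of genes higher and 4.61% lower. Of all calls 43.9% were lower, against 21.4% with a pseudocount. HNRNPM had 12.78 and 12.63 in rescue, against 12.31 and 12.33 in mutant rescue (0.38, SE 0.09, adjusted p = 0.0336). SRSF10 had 12.87 and 12.88 in rescue, against 12.59 and 12.39 in mutant rescue (0.38, SE 0.10, adjusted p = 0.0431). HNRNPA0 had 10.16 and 9.83 in rescue, against 10.71 and 10.93 in mutant rescue (-0.83, SE 0.13, adjusted p = 0.00763). The groups did not overlap for any of these genes, but the share of all genes without overlap is not given here. HNRNPM and SRSF10 are also among the 12 members lower in knockdown than in control, which makes 16.7% of those 12 and both of the members higher in rescue. Over all genes, 143 of the 970 lower in knockdown, or 14.7%, were higher in rescue than in mutant rescue, and they made up 18.6% of the 769 higher there.

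The remaining members gave no call between the rescue groups. The median log2 change was -0.03 over the members and -0.02 over all genes. HNRNPU (0.39, SE 0.14, adjusted p = 0.0993), HNRNPLL (0.32, adjusted p = 0.305) and HNRNPR (0.27, adjusted p = 0.0682) had the largest positive values among them, and HNRNPH1 stood at -0.63 (adjusted p = 0.155). HNRNPA1 (-0.15), HNRNPA2B1 (0.22), HNRNPC (-0.03), HNRNPK (0.09), SRSF1 (0.15), SRSF3 (-0.30) and SRSF7 (0.06) did not pass the test. With mutant rescue replicate 1 left out, 8 members were called lower in rescue, as were 12.9% of all genes. The HNRNPA0 call was lost without rescue replicate 2 (adjusted p = 0.0567) and in a fit of these 2 groups alone (adjusted p = 0.0695). The HNRNPM call was lost in 5 of the 8 fits that left out 1 library and the SRSF10 call in 7 of them. In the authors' deposited table, which gives mutant rescue minus rescue, HNRNPA0 was called (1.03, adjusted p = 0.000643), where 3.98% of genes were higher, while HNRNPM (-0.46, adjusted p = 0.123) and SRSF10 (-0.45, adjusted p = 0.147) were not.

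Of the 27 SR kinases, import factors and partners 2 were called between the rescue groups, both lower in rescue, and 0 higher, against the background of 4.61% lower and 5.9% higher. The kinase genes CLK2 (-0.60, SE 0.16, adjusted p = 0.0499) and CLK4 (-0.49, SE 0.10, adjusted p = 0.0198), whose products phosphorylate SR proteins, were those 2. TARDBP was higher in rescue (0.63, SE 0.11), and CIRBP (-0.48) and RBM3 (-0.45), a pair of cold-inducible RNA-binding proteins, were lower. Of 50 core spliceosome genes none was called in rescue against mutant rescue, rescue against knockdown or mutant rescue against knockdown. All 10 interferon markers were higher in rescue than in mutant rescue (median 1.70), and 4 of 8 mitochondrially encoded transcripts were lower (median -0.74). Of 12 cell cycle markers 4 were higher in rescue and 0 lower (median 0.28), and their part in the member changes was not tested.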

How the data were processed

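The titles of the samples gave groups and replicate numbers. A single table of the series was used, per the file headers an output of HOMER's getDiffExpression.pl on 8 libraries. Tools listed in the submitters' processing notes are HOMER, kallisto and Trim Galore, with the build GRCh38 and no versions. Library columns are log2 values, normalized between libraries by the authors in a way not stated in the sources used; genes of low level vary little in them, so their changes may be understated. The authors also deposited a log2 fold change, p-value and adjusted p-value per pair of groups; the model behind them is likewise unstated. Depth is unknown, and precision is limited by 2 libraries per group.

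The values being log2, limma (version 3.58.1, R 4.3.3) was applied to them without a pseudocount. Genes reaching 1 ppm of the linear sum in 2 or more libraries were kept (13030). A single model of the 4 group means was fitted to all 8 libraries (4 residual degrees of freedom; empirical Bayes with trend), and a Benjamini-Hochberg adjusted p under 0.05 over all genes was a call. The code was tested on simulated data. Promoters came from RefSeq (GRCh38.p14), where HNRNPA1 and SRSF2 had no entry, and gene models from GENCODE v29. Named are IGF2BP2, every called member (library values for up to 5 each way), 9 members for their roles (HNRNPA1, HNRNPA2B1, HNRNPC, HNRNPK, HNRNPU, SRSF1, SRSF3, SRSF7, SRSF10) and up to 4 called genes per list. One gene that this rule names is not reported here. HNRNPH1, HNRNPL, HNRNPAB, HNRNPLL, the members near no change and other genes given were chosen after their values were seen. The members and lists were chosen with earlier results of these data known. Alternatives were other filters (none, 5 ppm) and scalings, a pseudocount of 1 ppm, no trend, library weights, fits of 2 groups, the replicate block and leaving out each library, where a lone library was assumed to vary like the other groups.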

Additional observations from a re-analysis of the deposited data

Results flagged for a closer look

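The changes of rescue and of mutant rescue over knockdown differed in 3 members, by the test of rescue against mutant rescue, which is the difference between those changes. In the same test 5.9% of all genes were higher in rescue and 4.61% lower, so the share of members called in either direction, 3 of 34, was no larger than that of all genes. HNRNPA0 differed by -0.83 on the log2 scale (limma adjusted p = 0.00763), with a change of -0.82 in rescue and 0.01 in mutant rescue over knockdown. HNRNPM differed by 0.38 (adjusted p = 0.0336), with 0.46 in rescue and 0.08 in mutant rescue. SRSF10 differed by 0.38 (adjusted p = 0.0431), with 0.32 in rescue and -0.06 in mutant rescue. IGF2BP2 itself differed by 0.39 (adjusted p = 0.0839), and all 10 interferon markers were higher in rescue (median 1.70). Of 12 cell cycle markers 4 were higher in rescue and 0 lower (median 0.28). The mutation, the level of IGF2BP2, the interferon markers and the cell cycle markers cannot be told apart as sources of these differences, and other sources were not tested. Among the 8 fits that left out 1 library, the call was lost in 1 for HNRNPA0, 5 for HNRNPM and 7 for SRSF10.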

How the results depend on the processing

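No called direction reversed under any alternative run. In knockdown over control, the members' median change was -0.32 with the 5 ppm filter, -0.22 with quantile normalization and -0.21 with a pseudocount, and between -0.34 and -0.25 when 1 library was left out, while the count of lower members lay between 0 and 16 and the IGF2BP2 change between -0.697 and -0.642. In rescue over knockdown, 0 members were higher with quantile normalization or a pseudocount, 5 with library weights and 3 in the fit of 2 groups. The median was 0.06 with quantile normalization, 0.14 with equal medians and 0.04 with a pseudocount. Leaving out 1 library gave 0 to 2 higher, 0 to 1 lower and medians of 0.15 to 0.18.

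In mutant rescue over knockdown, 0 members were higher with no filter, quantile normalization, equal medians, a pseudocount, no trend or 2 groups, and 2 with weights. There 0 were lower with no filter, 5 ppm, quantile normalization, no trend, weights or 2 groups. The median was -0.07 with quantile normalization, 0.07 with equal medians and -0.09 with a pseudocount. Leaving out 1 library gave 0 to 9 higher, 0 lower and medians of 0.09 to 0.15. In rescue over mutant rescue, 0 were higher with no filter, weights or 2 groups and 4 with a pseudocount, and 0 were lower with 2 groups. The median was 0.05 with quantile normalization and 0.07 with a pseudocount. Leaving out 1 library gave 0 to 2 higher, 0 to 8 lower and medians of -0.05 to 0.06. The causes were not tested.

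With the replicate block, 12 members were lower in knockdown, 11 of them called without it. The block gave 2 higher in rescue and 3 higher in mutant rescue over knockdown, and 3 higher and 2 lower in rescue over mutant rescue. SRSF11 was no longer called lower in knockdown and SRSF3 was. Deviations of same-numbered libraries correlated between -0.0212 and 0.414, over 0.1 for 3 of the 6 pairs of groups, and the labels tie the numbers to no shared batch, so the block was not taken as the design. The deposited log2 values carry no depth, so no limit for low genes such as SRSF12 can be given.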
